A study of Mus musculus with 12 samples.

Results

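Peaks centred in the last exon of a gene are described here, from 6 peak lists of RNA pulled down for N4-acetylcytidine (ac4C) in mouse peritoneal macrophages. A peak was a member when the authors' annotation placed its centre in a last exon in at least 1 row and in a 3′ UTR or 5′ UTR in none, which makes 840 of the 4753 peaks of the lists. Merged across lists wherever they shared at least 1 base, they formed 468 of 2808 regions.

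The cells were peritoneal macrophages, kept in culture medium with serum and given IFN-γ for 0, 24 or 48 h. Every sample, that at 0 h included, carries the IFN-γ label, and no untreated cells were taken at the later times, so IFN-γ and time in culture cannot be told apart. For each time there are 2 lists, called list 1 and list 2 with no order between them, and the labels of the lists name an hour but no sample. The samples are not said to come from separate animals, and each p-value below therefore measures how far lists spread, which may be technical. Of 22 macrophage markers, 5 had a peak anywhere and 1 had one centred in a last exon (Cebpb, in 48 h list 2). Markers of B cells, T or NK cells, neutrophils and mast cells had 0 peaks, and 1 of 9 mesothelial or fibroblast markers had one outside last exons. A gene without a peak need not be a gene without RNA, so these counts leave the labelled cell type unchecked.

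ac4C is an acetylated cytidine that the enzyme NAT10 places in ribosomal RNA, transfer RNA and, as has been reported, messenger RNA, where it has been linked to RNA stability and translation. The last exon of a typical protein-coding gene holds the end of the reading frame, the stop codon and most or all of the 3′ UTR. A peak with a last-exon centre but no 3′ UTR centre therefore lies, in such a gene, at or before the stop codon or in a transcript without an annotated UTR. In a gene made of a single exon, such as a mitochondrial gene or a processed pseudogene, the last exon is the whole transcript. Processed pseudogenes are copies of spliced messenger RNAs that were inserted back into the genome, and short reads can be hard to assign between such a copy and its parent gene.

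Protein-coding genes of the nucleus supplied most of these regions, and pseudogenes the next largest share. Of the 468 regions, 296 (63.2%) lay in nuclear protein-coding genes and 130 (27.8%) in pseudogenes. Long noncoding RNAs held 16 regions, mitochondrial genes 7 and small RNAs 6, and 13 could not be matched to a gene type. The regions carried 449 gene symbols, 286 of them protein-coding, and 9 of these coding genes had more than 1 separate region, among them Fabp4, a fatty-acid binding protein, and Ptprc, the surface phosphatase CD45.

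Last-exon peaks were fewer in the lists with 24 or 48 h of IFN-γ, and their share of all peaks was similar. At 0 h the lists held 183 and 176 of them, at 24 h 128 and 136, and at 48 h 123 and 94, so every later list held fewer than either 0 h list. The means were 179.5 ± 4.95 at 0 h, 132 ± 5.66 at 24 h and 108.5 ± 20.5 at 48 h (SD, n = 2 lists each). The log2 ratio was -0.44 for 24 h against 0 h and -0.73 for 48 h against 0 h, and the groups did not overlap in either comparison; the exact permutation p was 0.33 in both, the smallest that 2 lists against 2 allow. The 4 later lists against the 2 at 0 h gave a log2 ratio of -0.58 and an exact two-sided permutation p of 0.067, again the smallest possible, with a Benjamini-Hochberg value of 0.64 over the 52 comparisons of times.

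The whole lists shortened too, so the share of last-exon peaks did not move with time beyond its spread. It was 15.9% and 18.6% of all peaks at 0 h (exact 95% binomial intervals 13.8 to 18.1 and 16.2 to 21.2), 17.7% and 21.1% at 24 h (14.9 to 20.6 and 18.0 to 24.4), and 18.2% and 15.4% at 48 h (15.4 to 21.4 and 12.6 to 18.5). These intervals cover counting error only, and the lists of all 3 times overlapped. Input depth also fell over the lists. Relative to 0 h list 1 it was 91.4% in 0 h list 2, then 73.7% and 80.8% at 24 h, then 57.2% and 44.5% at 48 h. It was read from the 1st percentile of background coverage over the summits of each list. With every list brought to the depth of the shallowest, the mean number of last-exon peaks was 151.5 at 0 h, 109.5 at 24 h and 104 at 48 h. With a fold of 4 or more required, the means were 38, 24 and 33, so the order of 24 h and 48 h turned. With lists cut to equal length the log2 ratio of later lists to 0 h was -0.19 (exact permutation p = 0.33) and the lists overlapped, with 120 and 141 last-exon peaks at 0 h and 114, 132, 117 and 94 later.

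The later lists also held a smaller share of peaks past a q of 0.05, among last-exon peaks as among all peaks. Among last-exon peaks this share was 65.0% and 65.3% at 0 h, then 49.2% and 54.4% at 24 h, then 53.7% and 52.1% at 48 h. Each later list lay below both 0 h lists, by 12.8 points on average (exact permutation p = 0.067, Benjamini-Hochberg 0.64 over the 52 comparisons). Over peaks of all places the share was 52.0% and 49.4% in the 0 h lists, 38.9% and 36.4% at 24 h, then 40.9% and 36.7% at 48 h. With each list cut to its 611 peaks of lowest p, the difference among last-exon peaks was -35.4 points. That cut takes the weakest peaks from the longer 0 h lists, which raises their share by construction, so the wider difference is not a stronger drop.

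**Figure D1:**
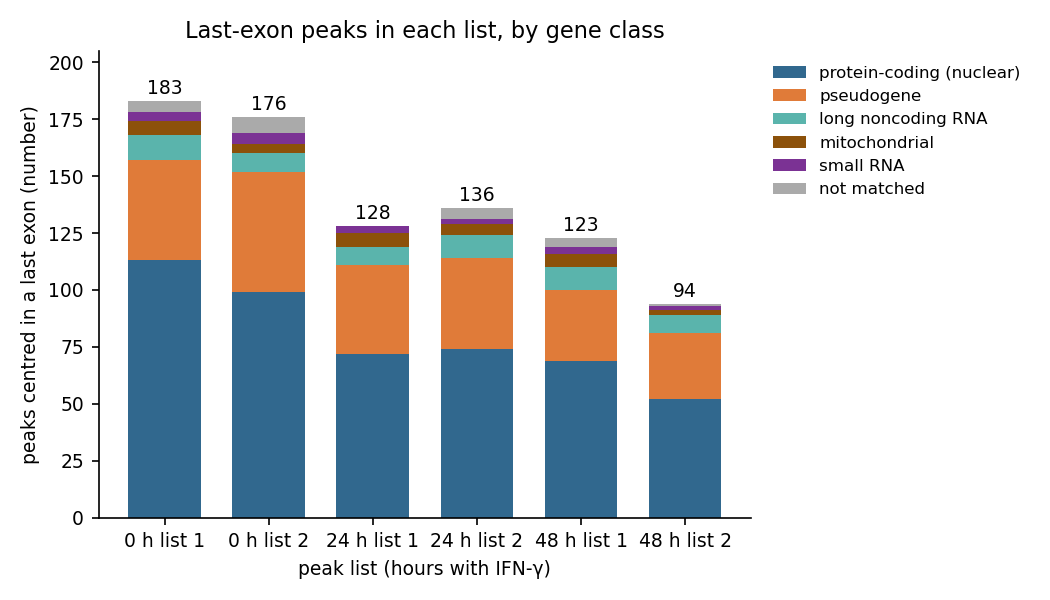
Bars give the number of peaks centred in a last exon in each of the 6 lists (horizontal axis, hours with IFN-γ), stacked by the class of the gene, with the total above. The lists at 0 h held 183 and 176 peaks and the later lists 94 to 136, with nuclear protein-coding genes the largest class in each.

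Coding and pseudogene peaks were both fewer in the later lists. Nuclear protein-coding genes had 113 and 99 last-exon peaks at 0 h, then 72 and 74 at 24 h, then 69 and 52 at 48 h, with no overlap between 0 h and the later lists (log2 ratio of later lists to 0 h -0.67, exact p = 0.067). Pseudogenes had 44 and 53, then 39 and 40, then 31 and 29, with a log2 ratio of -0.48 and an exact permutation p of 0.13. Long noncoding RNAs had 11 and 8, then 8 and 10, then 10 and 8 peaks, which overlapped at all times. The share of coding peaks was 59.0% at 0 h against 55.5% in the later lists and did not separate the times (exact permutation p = 0.13). Whether the classes differed from each other in their change was not tested.

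In nuclear protein-coding genes, nearly as many peaks stayed within the last exon as reached into the 3′ UTR. Of 479 such peaks, 225 (47.0%) ended in the 3′ UTR, 219 (45.7%) had both ends in the last exon, 78 (16.3%) began in the last intron and 6 (1.25%) reached outside the gene. For 268 peaks whose gene ends are in the tables, the centre lay a median of 649 bases before the end (interquartile range 368.5 to 1681), and 59.0% lay within 1 kb of it. Those gene ends are given only where the gene with the nearest start site is the gene itself, which favours short genes. Members were chosen for a centre in a last exon, so nearness to the gene end follows largely from that choice. A separate 3′ UTR peak of the same gene in the same list was found for 15 of 476 coding peaks in 1 gene (3.15%). Examples are Zfand5 in 0 h list 2 and 24 h list 1 and Cebpb in 48 h list 2. No share for peaks of other places is set beside this count. The share that ended in the 3′ UTR was 48.7% and 44.4% at 0 h, then 41.7% and 54.1% at 24 h, then 47.8% and 44.2% at 48 h, and these overlapped between times.

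Last-exon peaks ranked higher within their lists than peaks in 3′ UTRs or internal exons. Peaks were ranked by the authors' p, as the percentile of −log10 p within a list, a measure that the choice of members did not use. The median percentile of last-exon peaks was 62.8 and 65.8 in the 0 h lists, 60.2 and 67.1 in the 24 h lists, and 65.3 in both 48 h lists. Averaged over lists it was 64.4, against 50.9 for 3′ UTR peaks and 34.6 for internal exon peaks. The difference was 13.5 ± 2.53 points from the 3′ UTR and 29.8 ± 4.26 from internal exons (SD, n = 6 lists), positive in 6 of 6 lists both times. The exact sign-permutation p was 0.031, the smallest 6 lists allow (Benjamini-Hochberg 0.042 over 8 comparisons of places). With only the last-exon peaks limited to nuclear coding genes, the difference from the 3′ UTR was 3.87 points, still with the smallest exact permutation p. That from internal exons was 20.1 points. The peaks of the other 2 places were not limited to coding genes. Among peaks with a q of 0.05 or less the differences were 5.60 and 12.8 points (exact permutation p = 0.031 for both). With a fold of 4 or more they were 4.34 and 13.6, and the first no longer passed (exact permutation p = 0.0625). Peaks with a q of 0.05 or less made up 56.6% of last-exon, 43.0% of 3′ UTR and 26.4% of internal exon peaks, also in the same order in 6 of 6 lists (exact p = 0.031 for both differences). With only the last-exon peaks limited to nuclear coding genes, their share was 45.1%, near that of 3′ UTR peaks. It lay below the 3′ UTR share in 24 h list 1 (40.3% against 40.6%) and 48 h list 2 (34.6% against 36.6%) and above it in the other lists. This limited difference was not tested.

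The fold enrichment of last-exon peaks did not differ past the threshold from that of the other places over all peaks. The median was 3.10 for last-exon, 2.99 for 3′ UTR and 3.16 for internal exon peaks, with exact permutation p of 0.094 and 0.5 for the differences. Among peaks with a q of 0.05 or less the median of last-exon peaks was lower than that of internal exon peaks, with a difference of -1.24 (exact permutation p = 0.031). The difference from 3′ UTR peaks was then -0.14 (exact permutation p = 0.28). With a fold of 4 or more neither passed, at 0.098 from 3′ UTR and -0.081 from internal exon peaks (exact permutation p = 0.16 and 0.47). Last-exon peaks were shorter than 3′ UTR peaks in 6 of 6 lists, by 15.8 ± 6.63 bases of a mean median of 279.7, and longer than internal exon peaks in 6 of 6, by 43.4 ± 5.49 bases (exact p = 0.031 for both). With a q of 0.05 or less both calls were lost, at -9.75 bases (exact p = 0.0625) and 15.75 bases (exact p = 0.19). The median summit of a last-exon peak held 65 to 98 pulled-down fragments, and single summits held from 10 to 1541.

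**Figure D2:**
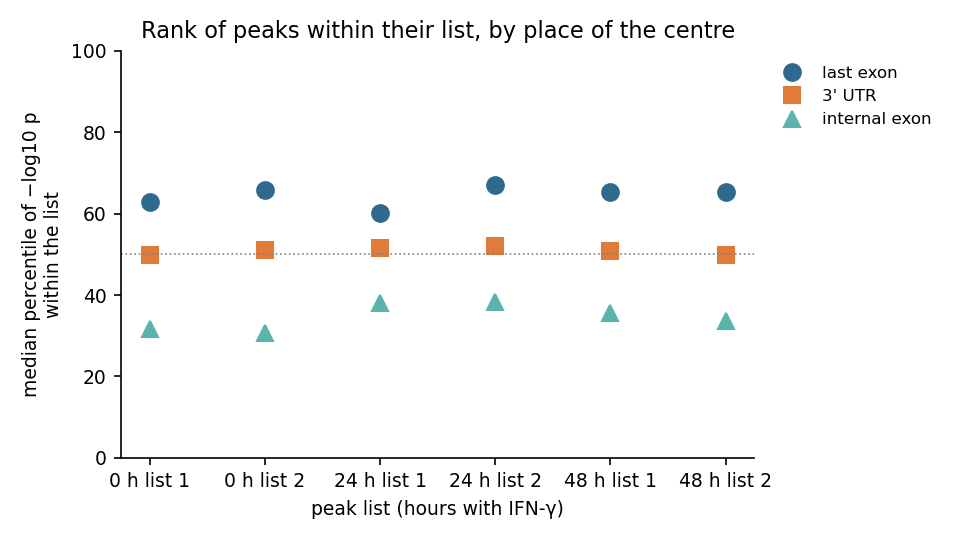
Points give the median percentile of −log10 p within each list (vertical axis, 0 to 100) for peaks centred in last exons, 3′ UTRs and internal exons, with a dotted line at the middle of a list. Last-exon medians lie between 60.2 and 67.1, above the 3′ UTR and internal exon medians of the same list in all 6 lists.

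Within the members, pseudogene peaks ranked higher than peaks of nuclear coding genes. The median percentile averaged 75.5 for pseudogene peaks and 54.7 for nuclear coding peaks, a difference of 20.7 ± 7.22 points that was positive in 6 of 6 lists (exact p = 0.031, Benjamini-Hochberg 0.042 over 4 comparisons). A q of 0.05 or less was reached by 68.1% of pseudogene and 45.1% of coding peaks, and pseudogene peaks were 17.1 ± 14.0 bases shorter (both in 6 of 6 lists, exact p = 0.031). Median fold did not separate them, at 3.16 against 3.12 (exact permutation p = 0.75). The median percentile of long noncoding RNA peaks was higher still, from 82.8 to 97.1 over the lists, on 8 to 11 peaks each.

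Most last-exon regions were found once, as were most regions of all places. Of the 468 regions, 299 (63.9%) had a last-exon peak in 1 list. That share was 63.2% over all places, 61.3% for 3′ UTR and 71.9% for internal exon regions. Another 73 last-exon regions were in 2 lists, 45 in 3, 19 in 4, 18 in 5 and 14 in all 6. A region was counted as recurrent when 4 or more lists held it. This was so for 51 of 468 (10.9%) against 8.44% of all regions, 8.58% of 3′ UTR and 5.24% of internal exon regions. By class, 21 of 296 coding regions (7.09%) and 15 of 130 pseudogene regions (11.5%) were recurrent, and 7 of 16 in long noncoding RNAs, 5 of 7 in mitochondrial genes and 2 of 6 in small RNAs. The coding share lay below that of all regions, and the classes of noncoding and mitochondrial RNA, though few, lay well above it.

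**Figure D3:**
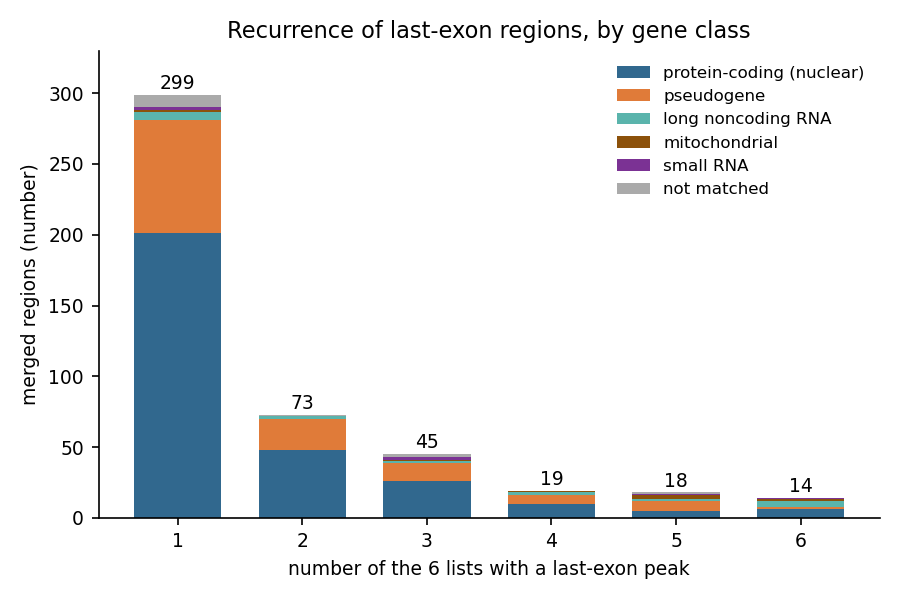
Bars give the number of merged last-exon regions (vertical axis) held by 1 to 6 of the lists (horizontal axis), stacked by gene class, with the total above. The total fell from 299 regions in 1 list to 14 in all 6, and coding genes made up 201 of the 299 but 6 of the 14.

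Among nuclear protein-coding genes, 11 regions were held by 5 or 6 lists. The values below are the authors' fold enrichment at the strongest summit of each list, which describe that list alone and are not compared across lists. Positions are GRCm39, as deposited.

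Polr2a, the largest subunit of RNA polymerase II, had a peak in all 6 lists at chr11:69625322-69626310, with a fold of 2.74 and 2.30 at 0 h, then 3.89 and 2.45 at 24 h, then 3.33 and 3.64 at 48 h. These peaks stayed in the last exon and held 106 to 383 fragments at the summit. Hmox1, the haem-degrading enzyme heme oxygenase 1, had folds of 2.24 in both 0 h lists, then 1.91 and 1.89 at 24 h, then 2.43 and 3.42 at 48 h at chr8:75826599-75827074, reaching into the 3′ UTR. Its peak passed a q of 0.05 in 5 of the lists and had a −log10 q of 0.93 in 24 h list 1. Tsc22d3, the glucocorticoid-induced leucine zipper protein, had folds of 4.44 and 2.66 at 0 h, then 3.94 and 2.18 at 24 h, then 5.56 and 3.08 at 48 h at chrX:139440413-139440821. Averaged over the 6 lists, its percentile within a list was 71.9.

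Slfn2, a Schlafen family gene induced by interferon, had folds of 2.73 and 2.79, then 2.33 and 1.89, then 2.65 and 3.59 at chr11:82960129-82960498, a stretch that also lies in the first intron of Gm20234. Ptprc, which encodes CD45, the pan-leukocyte phosphatase, had folds of 3.80 and 4.28 at 0 h, then 4.27 and 2.54 at 24 h, then 2.06 and 2.27 at 48 h at chr1:137991668-137992212. Its −log10 q was 18.3 and 17.4 in the 0 h lists and 0.00 in both 48 h lists, so at 48 h the call met the authors' p threshold without passing a q of 0.05. Atp6v1c1, a subunit of the proton pump that acidifies lysosomes, had folds from 1.60 to 2.67 in the 6 lists at chr15:38691921-38692569. The lists at 0 h held its peak with a q well under 0.05, and 24 h list 2 and 48 h list 2 with a −log10 q of 0.00.

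The other 5 coding regions had no last-exon peak in 1 list each. Plk2, a polo-like kinase, and Zfand5, a zinc finger protein that stimulates the proteasome, had folds of 1.77 to 3.75 and 1.99 to 3.32 and were missing from 48 h list 1. Mib1, a ubiquitin ligase of Notch ligands, had folds of 3.05 to 4.47 and was missing from 24 h list 2. Atf1, a CREB-family transcription factor, had folds of 1.90 to 4.02 and in 48 h list 2 had a 3′ UTR peak over the same bases instead. Septin7, a filament-forming GTPase, had folds of 1.90 to 2.36 and was missing from 0 h list 2. In 3 of these lists of Septin7 the −log10 q was 0.00, so recurrence and strength within a list were different properties.

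The noncoding members included the strongest and most regular peaks. Gm22009, typed as a small guide RNA and lying in an intron of Kpna4 at chr3:68992445-68992760, had folds of 8.20 and 9.31 at 0 h, then 6.98 and 9.38 at 24 h, then 11.6 and 12.7 at 48 h. Its percentile within a list was 99.9 or above in every list, on 310 to 376 fragments. Scarna2, a guide RNA of Cajal bodies, had folds of 2.63 to 8.89 at chr3:108461669-108462067 and was missing from 24 h list 2. Small RNAs of this kind guide the modification of other RNAs.

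Malat1, an abundant nuclear long noncoding RNA, had 4 regions in all 6 lists and 1 more in 3 lists. The widest ran over chr19:5850108-5852671, overlapping Gm37376, and its strongest summit had folds of 3.04 and 3.66 at 0 h, then 2.77 and 2.29 at 24 h, then 3.40 and 2.75 at 48 h, on 615 to 1168 fragments. The 4 regions had folds of 2.1 to 4.59 at their strongest summits, and none had a −log10 q under 5.16 in any list. Norad, a cytoplasmic long noncoding RNA that binds PUMILIO proteins, had a region at chr2:156233603-156234276 with folds of 3.37, 2.74, 3.27, 2.21 and 4.03 and no peak in 24 h list 1. Neat1, the scaffold RNA of paraspeckles, had a region of 4 lists at chr19:5894647-5895300 and another at chr19:5893081-5894134, with folds of 2.45 to 3.47 and 2.64 to 3.13. Both Neat1 regions were absent from 48 h list 2, the first also from 0 h list 2 and the other also from 24 h list 1.

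Genes of the mitochondrial genome were held often but at modest folds. mt-Nd5, a subunit of respiratory complex I, had folds of 2.46 and 2.38 at 0 h, then 2.65 and 2.26 at 24 h, then 3.36 and 2.60 at 48 h at chrMT:12967-13963. Another mt-Nd5 region, chrMT:11798-12071, had a peak in both 0 h lists and 24 h list 1 and in no other. mt-Nd1 and mt-Nd2 of complex I and mt-Cytb of complex III had folds of 1.59 to 2.59, 1.86 to 2.34 and 1.64 to 2.94 in 5 lists each. mt-Co1, the catalytic subunit of cytochrome oxidase, had folds of 1.49 to 1.66 in 4 lists, and mt-Nd4 a fold of 4.68 in 48 h list 1 alone. These were the mitochondrial members in full; 48 h list 2 held 2 of the 7 regions and each other list 4 to 6.

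Pseudogenes gave 9 of the 32 regions in 5 or 6 lists. Gpx4-ps2, named for the lipid peroxide reductase Gpx4, had folds of 4.22 and 4.12 at 0 h, then 2.98 and 2.70 at 24 h, then 2.84 and 3.01 at 48 h at chr10:45751532-45752112, on 321 to 439 fragments. Tpm3-rs7, named for the tropomyosin gene Tpm3, had folds of 2.41 and 2.59, then 2.62 and 3.28, then 3.45 and 3.38 at chr14:113552152-113552781. Hspd1-ps3, named for the mitochondrial chaperonin Hspd1, had folds of 3.25 to 3.80 in 5 lists. The other 6 carry numbered names, Gm9843, Gm5814, Gm17807, Gm7308, Gm7809 and Gm9892, and among them Gm5814 had the highest folds, 4.58 to 9.00, in an intron of Gm50461. Gm9800, which matched no gene type, was found in 5 lists with folds of 2.64 to 4.97.

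**Figure D4:**
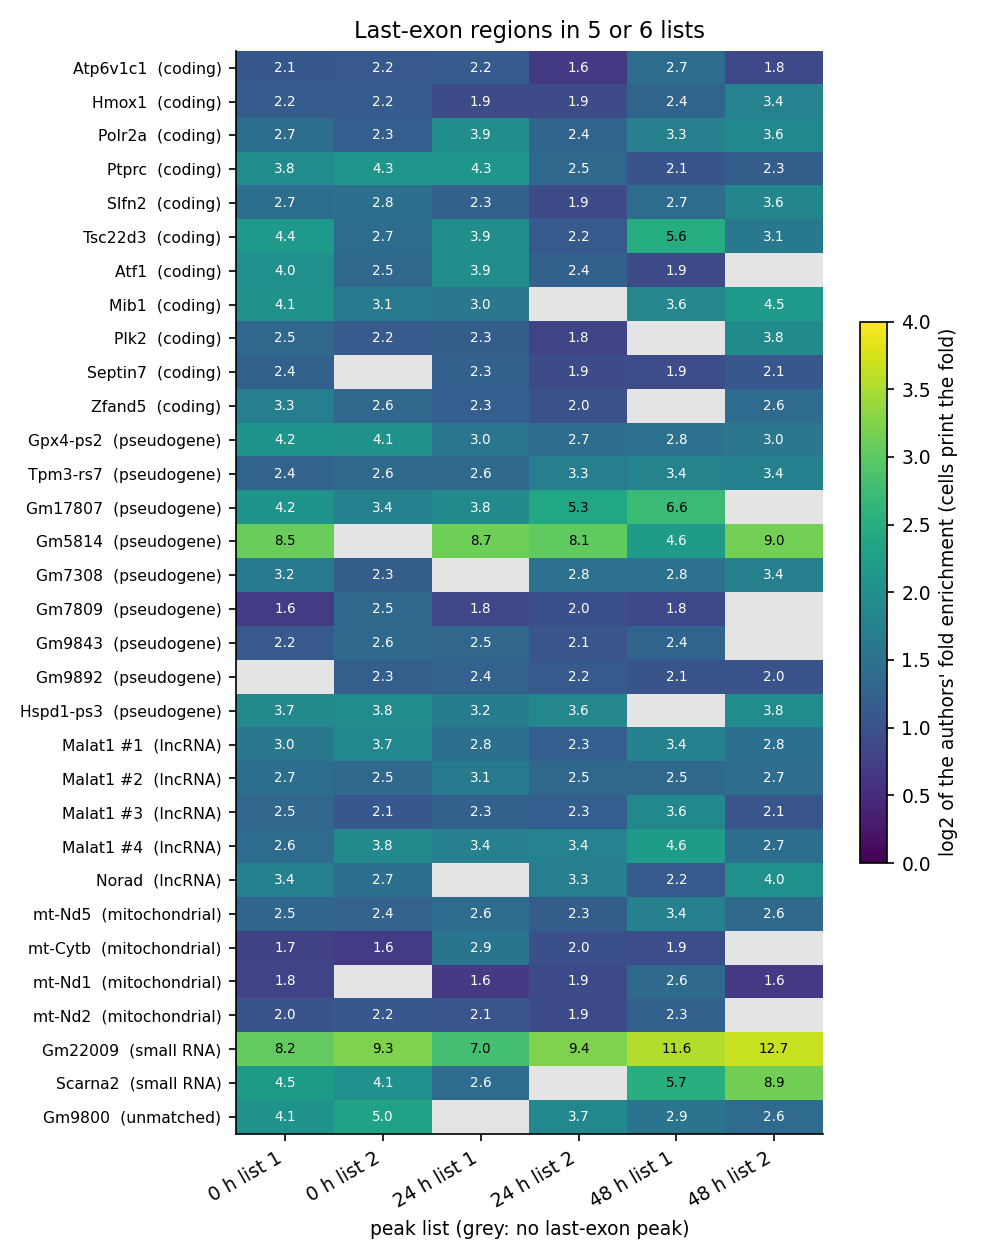
Each row is 1 of the 32 last-exon regions held by 5 or 6 lists, each column a list; colour gives log2 of the authors' fold enrichment at the strongest summit and the cell prints the fold, with grey where the list has no last-exon peak. Gm22009 had the highest folds, 6.98 to 12.7, and most coding, Malat1 and mitochondrial rows lie between 1.59 and 4.59.

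Pseudogene peaks were set beside peaks on the gene they are named for. Of 33 pseudogenes whose name gives a parent, the parent had a peak anywhere in the lists for 8, and in a list that also held the pseudogene peak for 7. These 7 parents were Anp32b, Atf1, Hspd1, Ptges3, Rab7, Rps24 and Smarca5, and the eighth was Llph. The parents Gpx4 and Tpm3 had no peak in any list. Parents were looked up by the symbol in the pseudogene's name, so a parent listed under another symbol counted as having none. No share over other genes is set beside these counts. Of 236 pseudogene peaks, 61 (25.8%) had a centre that also lay in an intron of another gene, such as Cd63-ps in an intron of Hsd17b4. The origin of the reads under a pseudogene peak, from the pseudogene, its parent or a host transcript, was not tested.

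Regions held at 0 h and in no later list made up a smaller share of last-exon regions than of all regions. A last-exon peak was present in both 0 h lists for 80 regions, and 16 of these (20%) had none in the 4 later lists, against 33% over all places, 34.9% of 3′ UTR and 39% of internal exon regions. The share differed by gene class. Among coding genes 13 of 42 (31.0%) were lost in this sense, among pseudogenes 3 of 23 (13.0%) and among the other classes 0 of 15, so the coding share lay near that of all places. These shares are descriptions with no test. With peaks of a q of 0.05 or less alone, 19 of 59 last-exon regions (32.2%) were lost against 36.8% over all places. With a fold of 4 or more the order turned, at 5 of 8 (62.5%) against 25 of 42 (59.5%).

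Taken by single times, 29 of the 80 regions (36.3%) were in neither 24 h list, against 48.3% over all places, and 30 (37.5%) were in neither 48 h list, against 45.5%. Regions in both 24 h lists numbered 46, of which 6 (13.0%) were in neither 0 h list, against 22.2% over all places. Regions in both 48 h lists numbered 30, of which 6 (20%) were in neither 0 h list, against 28.7%. Of 18 regions in all 4 later lists, 0 were absent from both 0 h lists. No share over all places is set beside this count. It was 1 with equal list length, with matched input coverage, and when any peak over the bases counted. A region missing from a list is one that the authors' threshold did not call there, and later lists had less input depth.

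**Figure D5:**
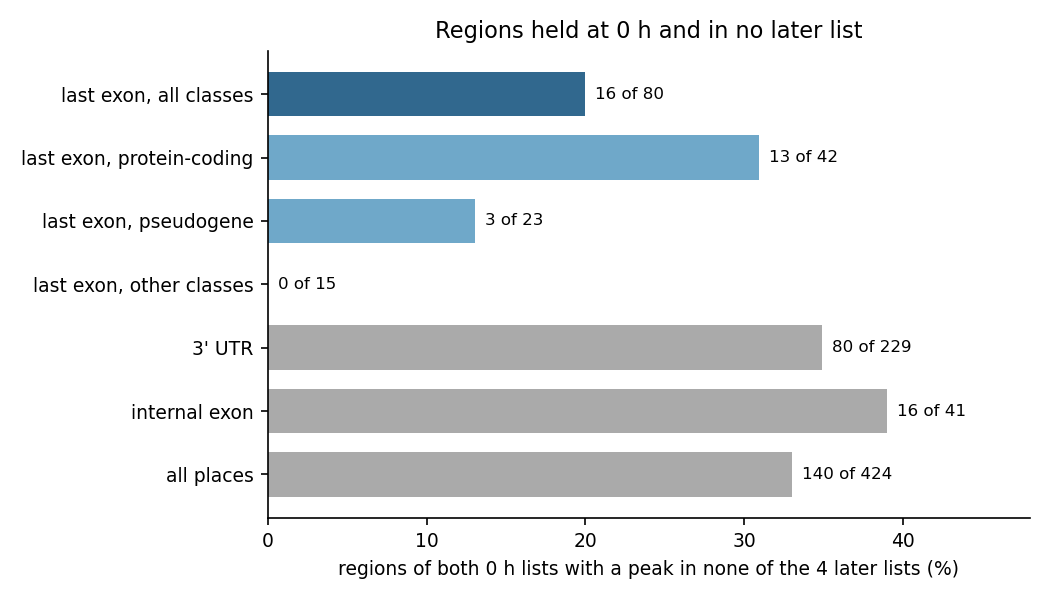
Bars give the percent of regions present in both 0 h lists that had a peak in none of the 4 later lists, for last-exon regions in all and by gene class and for other places, with the counts printed. The last-exon share was 20% (16 of 80) against 33% over all places (140 of 424), and that of nuclear coding genes 31.0% (13 of 42).

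The coding genes lost in this sense included Gpnmb, Gpx1, Gsr and several splicing factors. Gpnmb, a glycoprotein of lysosomes and repair-type macrophages, had the highest ranked peak, at chr6:49033172-49033427, with folds of 1.71 and 2.00 in the 0 h lists, on 1541 and 1361 fragments. No later list held a peak over those bases. Of 25 listed genes of alternative activation and repair, 10 had a peak anywhere and 3 were members. Gpnmb was the only 1 of these members lost. Hmox1 was held by every list, and Spp1 by 24 h list 2 alone. Gpx1, the cytosolic glutathione peroxidase, had folds of 2.25 and 1.60 at chr9:108217081-108217522, and Gsr, which regenerates reduced glutathione, had 2.90 and 2.83 at chr8:34187284-34188035. Tuba1c, an α-tubulin, had folds of 3.74 and 2.93, and Arhgap25, a Rac-directed GTPase activator of leukocytes, had 2.74 and 3.53.

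Cd63-ps, a pseudogene of the tetraspanin gene Cd63, was the other member of the 8 highest ranked losses, with folds of 3.02 and 2.60. The remaining regions lost in this sense ranked lower and lay in Gm14681, Ppp1r12a (at 2 places), Arf6, Gm12966, Hnrnph1, Jarid2 and Gatd1. Jarid2 and Gatd1 rested on 13 to 19 fragments per summit and a −log10 q of at most 0.25. Arf6, a small GTPase of membrane traffic, had 3′ UTR peaks over the same bases in both 48 h lists, so 15 of the 80 remained lost when a peak of any place was counted.

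Splicing factors were members more often at 0 h than later, as were all members. Of 39 listed, 30 had a peak anywhere and 8 had one centred in a last exon, 7 of them in a 0 h list, 1 in a 24 h list and 1 in a 48 h list. Of all 468 regions, 275 were in a 0 h list, 215 in a 24 h list and 184 in a 48 h list. Srsf3, an SR protein that regulates splicing and RNA export, had folds of 3.36 and 3.35 at chr17:29260621-29260940 in the 0 h lists and no later peak. Hnrnpl, an hnRNP protein that controls alternative splicing, among others of Ptprc, had 2.78 and 4.18 at chr7:28521292-28521572, and Hnrnph1 had 2.84 and 3.43 on 32 fragments in each list. Srsf5 had folds of 3.76 and 6.27 at 0 h and 2.28 in 24 h list 1. Sfpq, Hnrnpa0 and U2af2 had a peak in 0 h list 1 alone, and Srsf4 in 48 h list 2 alone. The list was chosen with earlier results of these data known and was not tested against other genes.

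Some interferon and inflammatory genes were members. The IFN-γ signalling list has 19 genes, of which 4 carried a peak anywhere and 2 had a last-exon peak, the transcription factors Irf1 in 24 h list 1 and Irf5 in 24 h list 2, on 11 and 37 fragments. Of 39 interferon-induced effectors, 8 had a peak anywhere, and the members were Slfn2 and Acod1, which makes itaconate and had a fold of 1.99 in 24 h list 2. Of 27 antigen presentation genes, 7 had a peak anywhere. Cd74, the invariant chain, had a last-exon peak in 24 h list 2 and Ctss, the protease that cleaves it, in 48 h list 1. The Ctss peak was strong, with a fold of 4.24 on 618 fragments, in 1 list only. Of 32 inflammatory genes, 13 had a peak anywhere and 3 were members. Cxcl2, a neutrophil-attracting chemokine, was in 4 lists, with folds of 2.73 in 0 h list 2, 3.56 and 3.27 at 24 h and 4.26 in 48 h list 2.

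The regions gained at a later time were mostly present in few lists. Rpl41, a small ribosomal protein, had folds of 3.01 and 3.51 in the 48 h lists at chr10:128384031-128384265, on 335 and 334 fragments, and no peak before. Csf2ra, the α chain of the GM-CSF receptor, reached a fold of 3.25 in 24 h list 1, and of 5.63 and 4.78 at 48 h, and Igf2bp2, an RNA-binding protein, had 2.86 in 24 h list 1 and 3.75 and 3.82 at 48 h. Tank, an adaptor of TBK1 signalling, had 2.89 and 2.91 at 24 h only. Clec4e, the receptor Mincle, had 1.92 and 1.53 at 48 h only, with a −log10 q of 0.00 in 48 h list 2. Bhlhe40, a transcriptional repressor, had last-exon peaks of 1.93 and 2.56 at 24 h and 2.46 in 48 h list 2, yet 3′ UTR peaks covered the same bases at 0 h. The pseudogenes Gm12696 and Rps19-ps6 completed the 8 highest ranked gains.

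Other listed groups held scattered members. Of 32 translation factors, 18 had a peak anywhere and 4 were members. Eif4a1, the helicase of translation initiation, had folds of 2.82 and 3.20 at 0 h. Later it had 1.98 in 24 h list 2 and 2.07 in 48 h list 2. Of 55 ribosomal proteins, 13 had a peak anywhere and 3 were members. These were Rpl41, Rpl22 in 1 list of each time, and Rps24 in 0 h list 2 and 24 h list 1. Of 32 chaperones, 17 had a peak anywhere and 4 were members. Hspa5, the chaperone BiP, was in both 0 h lists and 24 h list 2 with folds of 1.73 to 3.23. Of 42 lysosomal genes, 18 had a peak anywhere and 5 were members, with Hexa and Neu1, 2 glycoside hydrolases, in 2 lists each. Of 28 zinc finger and BTB factors, 16 had a peak anywhere and 2 were members, and Zbtb18 was in 0 h list 2 and 24 h list 2. For these and the listed groups above, no share over all genes with a peak is set beside the counts. Of the merged regions of all places, 468 of 2808 were last-exon regions, counted by region and not by gene. Whether a listed group departs from other genes was not tested.

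The authors' deposited table also gives gene ontology terms, set here beside those of coding genes with 3′ UTR peaks only. The most frequent term was nucleus, carried by 160 of 286 last-exon genes (55.9%) and 503 of 1105 3′ UTR genes (45.5%). The term membrane was carried by 28.0% and 41.1%, and RNA binding by 13.3% and 8.96%. These 3 terms were chosen after their values were seen, and no test was made.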

How the data were processed

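Peak tables of 6 ac4C pull-down samples were used, 2 per time. The tools named are BWA 0.7.12 and MACS2 2.1.0, with the build GRCm39, per the submitters' processing notes. Their roles, their settings and each list's control library are not given in the sources used for this work. Fold enrichment is the authors' deposited ratio of signal to background at a summit, and p-values and q-values are deposited as −log10, per the file headers. Libraries of total RNA were left out and not analysed here.

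A region took the fold, p and q of its strongest summit; starts and ends are as deposited. Begin and end annotations run along the transcript. Gene types came from a RefSeq table (GRCm38.p6) by symbol, with 434 of 449 symbols matched. No sequences are shown, since a genome of the peaks' build was not used here. The input depth is the 1st percentile of background coverage over the summits of a list. Summit fragments and relative input depth were recovered from fold and p with 1 factor per list (0.437, 0.468, 0.295, 0.330, 0.293 and 0.260), which matched 99.1% to 100% of summits. This step was tested on simulated data. Two-sided exact permutation tests compared the numbers and shares of the lists, and exact sign permutation over the 6 lists compared places and classes, with Benjamini-Hochberg adjustment within each family (Python 3.11.15, scipy 1.17.1, pandas 2.3.3).

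Named regions followed a rule. Each region's rank was its within-list percentile of −log10 p, averaged over the lists that hold it. Named were all in 5 or 6 lists, the 8 highest sustained losses and the 8 highest gains, the 5 strongest of each time, and listed genes and markers in 2 or more lists. Other genes are named where a count is small and were chosen after their values were seen. The members, gene lists and tests were chosen with earlier results of these data known. The alternatives tried required a q of 0.05 or less or a fold of 4 or more, or took equal list length (611 peaks), matched input coverage, wider and narrower annotation rules, coding genes alone, merging at an overlap of 50% of the shorter peak, a peak of any place over the same bases, and leaving out each list.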

Additional observations from a re-analysis of the deposited data

How the results depend on the processing

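No paired analysis was possible because the lists name their time and not their sample. Of 335 repeats of the results, 255 kept direction and side of the threshold or stayed near the main count. The cause of the changes below was not tested, except where fewer lists or peaks enter by construction. The log2 ratio of later lists to 0 h stayed below 0 in all repeats.

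With a q of 0.05 or less, the share at 48 h minus 0 h was 0.65 points (against -0.43), the fold difference from the 3′ UTR -0.14 and from internal exons -1.24 (now past the threshold), and the length differences -9.75 and 15.75 bases (no longer past it); 32 regions were in 4 or more lists and 3 were gained at 48 h. With a fold of 4 or more, the shares differed by -0.12 points (24 h against 0 h), 0.13 (48 h against 0 h) and 0.25 (48 h against 24 h), the log2 ratio of 48 h to 24 h was 0.46, the percentile difference from the 3′ UTR 4.34 (no longer past the threshold), and 3 regions were recurrent, with 5 sustained losses, 7 losses at 24 h, 5 at 48 h, 0 gains at 24 h and 2 at 48 h. With equal list length the share differed by -1.23 points at 24 h and -2.66 in later lists against 0 h, the percent with a q of 0.05 or less by -1.39 points for 48 h against 24 h, and there were 1 sustained gain, 19 losses at 48 h and 10 gains at 24 h. With the last exon as only annotation, the share at 48 h minus 0 h was 0.24 points and 3 regions were gained at 24 h. With last-exon peaks of coding genes alone, and peaks of other places not limited, the share of later lists minus 0 h was -0.11 points. The length difference from the 3′ UTR was -14.2 bases (no longer past 0.05), with 21 recurrent regions, 19 losses and 2 gains at 24 h. With matched input coverage, the percent with a q of 0.05 or less differed by -7.69 points for 48 h against 24 h, and 1 sustained gain was found; 1 was also found when any peak over the bases counted.

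Leaving out each list in turn, the smallest exact permutation p with 5 lists is 0.0625, so no comparison of places could pass. The percentile differences ranged from 13.2 to 14.5 (3′ UTR) and 28.8 to 31.3 (internal exon), and the length differences from -17.3 to -13.9 and 42.2 to 45.3 bases. The share ranged from -1.87 to 1.00 points for 48 h against 0 h and -0.52 to 2.19 for later lists against 0 h, and the percent with a q of 0.05 or less from -1.52 to 3.67 for 48 h against 24 h. Counts need only 1 list of the time that lost a list, and ranged from 21 to 92 for sustained losses, 0 to 3 for sustained gains, 29 to 109 and 30 to 115 for losses at 24 h and 48 h, and 6 to 63 and 6 to 65 for gains. The sustained losses reached their highest values without a 0 h list.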
